A study of Mus musculus with 2 samples.

Results

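The 35 genes described here encode the proteins that tether, dock, prime and fuse hormone granules in islet cells. They are the SNARE proteins, the synaptotagmins, the Rab3 and Rab27 GTPases with their effectors, and the priming and disassembly factors, and they were picked by gene symbol for what their proteins do. Of 24278 gene symbols on the array these are 35, and all 35 were measured. Each had at least 1 probe well above background on all 8 arrays, so none was lost to the filter on dim probes.

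Expression was measured on 1-colour Agilent mouse arrays. The RNA came from isolated islets of C57BL/6J mice aged 8 weeks, taken 3 days after pancreatectomy, in which 60% of the pancreas is removed, or after a sham operation. Each group is 1 deposited sample record with 4 arrays, and all 8 arrays lay on 1 slide. The labels do not state whether a group's 4 arrays hold RNA of different mice, of pools or of a single extract, so the p-values below measure the spread between arrays, which may be technical. Pancreatectomy arrays filled columns 3 and 4 of the slide and sham arrays columns 1 and 2, so slide column and operation cannot be told apart. Slide row 1 held replicates 1 and 2 of each group and slide row 2 replicates 3 and 4. The description of the sham record lists one slide position in row 1 a second time in place of that of sham replicate 4, whose file is deposited under the sham record and was taken as sham on that ground.

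Insulin and the other islet hormones are stored in dense-core granules. Rab GTPases and their effectors bring granules to the plasma membrane, syntaxin and Snap25 there pair with Vamp2 on the granule, and calcium binding to synaptotagmins lets the zipped complex open a fusion pore. Complexins and Munc18-type proteins hold or steer the complex, Munc13 and CAPS proteins prime it, and Nsf with Napa takes it apart after fusion.

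Signals are given as normalized log2 values of the brightest kept probe of a gene, and changes are pancreatectomy minus sham on the log2 scale. The 75th percentile of the processed signal ran from 280 to 640 on the pancreatectomy arrays and from 178 to 655 on the sham arrays, lowest on sham replicate 3, where 48.1% of probes were well above background, against 59.0% to 71.4% on the other 7 arrays. Ins1, Ins2 and Iapp of beta cells, Gcg of alpha cells and Sst of delta cells were well above background on all 8 arrays. Acinar markers were also well above background throughout, and Cpa1, a digestive carboxypeptidase, ranged from 14.12 to 16.32 on the pancreatectomy arrays and from 13.62 to 16.27 on the sham arrays. In the same comparison 5 of 5 cell cycle markers rose. Pancreatectomy replicates 1 and 3 stood apart from the other arrays in fibroblast and macrophage markers, and results are given with and without them.

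No granule exocytosis gene passed the test. With limma and Benjamini-Hochberg adjustment over 30858 features, 0 of 35 members were called at an adjusted p of 0.05, where 0.629% of all features were called, 0.544% as higher and 0.0843% as lower. The smallest adjusted p of any member was 0.411, for Rab3b. At an unadjusted p under 0.05 there were 4 members, or 11.4%, of which Rab3b, Syt7 and Cplx2 were lower and Rab27b was higher, and 10.5% of all features met that bound (4.22% higher and 6.28% lower). That count of 4 became 0 without pancreatectomy replicate 3, 1 without pancreatectomy replicate 1, and 2 without sham replicate 2 or sham replicate 3, where 8.09%, 7.74%, 7.4% and 14.2% of all features met the bound. With array weights in limma it was 15 of 35, or 42.9%, against 21.1% of all features. The 4 arrays of one group lay wholly apart from those of the other for 2 members, or 5.71%, Stx1a being lower and Rab27b higher after pancreatectomy, against 8.28% of all features (2.98% higher and 5.3% lower). With all arrays weighted equally these shares are close to those over all features.

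The changes were small and mostly of one sign. They ran from -0.56 for Rab3b, 0.679 times the sham level, to 0.39 for Rab27b, 1.31 times the sham level. A negative change was measured for 28 of 35 members, or 80%, against 54.9% of all features, and the members' median was -0.18 against -0.037 over all features. In absolute size the members' median change was 0.19, and over all features it was 0.21. The 95% interval of the change stayed within 1 log2 unit of 0 for 32 of 35 members, or 91.4%, against 73.8% of all features. The intervals that reached further were those of Snap25, down to -1.05, Rab3b, down to -1.04, and Rab3c, up to 1.00. All features include those well above background on only 4 of 8 arrays, while the members were so on all 8. Among features well above background on all 8 arrays, the median change of all features was -0.071.

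**Figure D1:**
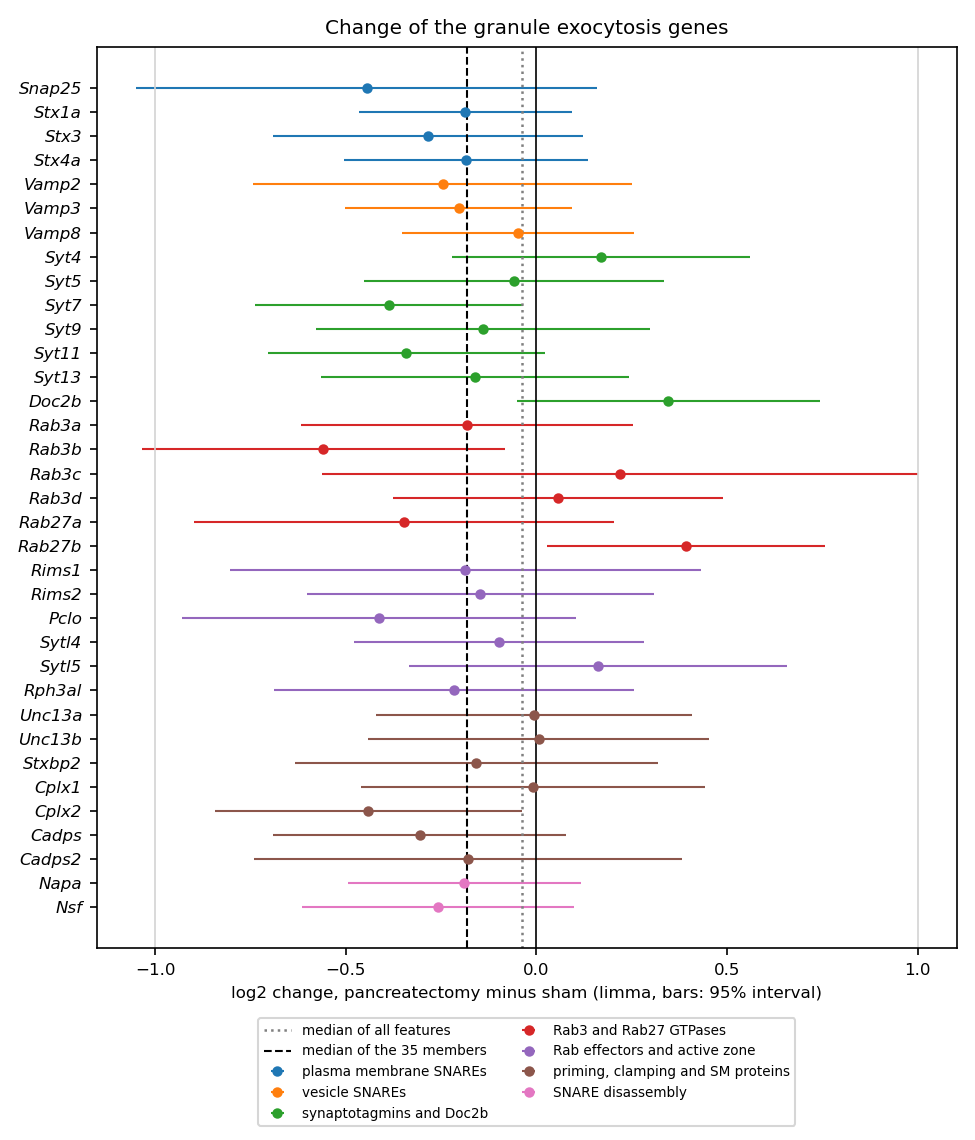
Log2 change of each of the 35 members (horizontal axis, pancreatectomy minus sham, limma, n = 4 arrays a group) with its 95% interval, ordered by role and coloured by it. Most points lie left of 0, the dashed line marks the members' median of -0.18 and the dotted line the median of all features, -0.037, and 4 intervals leave 0 out (Syt7, Rab3b, Rab27b and Cplx2), none of them past the adjusted threshold.

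All 4 plasma membrane SNARE genes had negative changes, with a median of -0.24, and none passed. Snap25, the membrane SNARE that gives 2 helices to the complex, had values of 12.85, 13.61, 12.90 and 13.25 on pancreatectomy replicates 1 to 4, against 13.48, 13.55, 14.23 and 13.13 on sham replicates 1 to 4. The groups overlapped, with replicates 1 and 3 lowest after pancreatectomy and sham replicate 3 highest of all. The change was -0.45 ± 0.27 (SE, n = 4 a group, limma adjusted p = 0.601) for a probe at chr2:136607709-136607768 (mm9). Without pancreatectomy replicates 1 and 3 it was -0.17.

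Stx1a, the syntaxin of docking sites, had 7.65, 7.55, 7.53 and 7.603 on the pancreatectomy arrays and 7.74, 7.85, 7.69 and 7.79 on the sham arrays. Every pancreatectomy value lay under every sham value, the nearest pair being pancreatectomy replicate 1 and sham replicate 3. Its change was -0.19 ± 0.12 (limma adjusted p = 0.628; probe at chr5:135526477-135526536), and it was -0.20 and -0.17 within slide rows 1 and 2 and -0.19 without pancreatectomy replicates 1 and 3. Stx3, a syntaxin of the plasma membrane and of granules, had 10.37, 10.88, 10.34 and 10.90 on the pancreatectomy arrays, against 10.82, 11.05, 10.92 and 10.82 on the sham arrays. Only pancreatectomy replicates 1 and 3 lay below the sham range, and the change of -0.28 ± 0.18 (limma adjusted p = 0.616) came to -0.016 without them. Over all arrays the other, dimmer Stx3 probes gave -0.37 ± 0.22 and -0.44 ± 0.21. Stx4a, a syntaxin that also serves glucose transporter traffic in muscle and fat, had -0.18 ± 0.14.

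The 3 vesicle SNARE genes were also negative, with a median of -0.20. Vamp2, the synaptobrevin of insulin granules, had 11.94, 11.86, 11.84 and 12.32 on the pancreatectomy arrays and 11.83, 12.20, 12.76 and 12.16 on the sham arrays. Sham replicate 1 was the lowest of all 8 arrays and sham replicate 3 the highest, so the sham range enclosed the other group. The change was -0.25 ± 0.22 (limma adjusted p = 0.722; probe at chr11:68905527-68905586), and without sham replicate 3 it was -0.072. Vamp3, a synaptobrevin of recycling endosomes, had 8.85, 8.78, 8.67 and 8.98 on the pancreatectomy arrays, against 8.96, 9.099, 9.02 and 9.03 on the sham arrays. Pancreatectomy replicate 4 alone reached into the sham range, and the change was -0.20 ± 0.13 (limma adjusted p = 0.624). Vamp8, known from granule fusion in the exocrine pancreas, had -0.05 ± 0.13.

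Among the 7 genes of synaptotagmins and Doc2b, 5 changes were negative and 2 positive, with a median of -0.14. Syt7, a calcium sensor of high affinity on insulin granules, had 9.24, 9.19, 9.05 and 9.40 on the pancreatectomy arrays and 9.40, 9.61, 9.87 and 9.56 on the sham arrays. The groups touched only where pancreatectomy replicate 4 exceeded sham replicate 1. The change was -0.39 ± 0.15, or 0.765 times the sham level (limma adjusted p = 0.436; probe at chr19:10527150-10527209). A second, dimmer Syt7 probe gave 0.11 ± 0.15, of the other sign. Syt11, which lacks calcium binding, had 10.25, 10.37, 10.11 and 10.52 on the pancreatectomy arrays, against 10.67, 10.68, 10.87 and 10.40 on the sham arrays. Sham replicate 4 lay among the pancreatectomy values, and the change was -0.34 ± 0.16 (limma adjusted p = 0.505).

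Doc2b, a calcium-binding protein that works beside the synaptotagmins in insulin release, was on the other side of 0. It had 8.08, 8.32, 8.22 and 8.11 on the pancreatectomy arrays and 7.85, 8.15, 7.44 and 7.90 on the sham arrays. Sham replicate 2 reached into the pancreatectomy range and sham replicate 3 was lowest, and the change was 0.35 ± 0.18 (limma adjusted p = 0.536; probe at chr11:75582645-75582704). Syt4, a synaptotagmin that binds calcium poorly, was the other positive one at 0.17 ± 0.17. Syt5 had -0.06 ± 0.17, Syt9, a calcium sensor of insulin granules, -0.14 ± 0.19, and Syt13, which does not bind calcium, -0.16 ± 0.18.

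**Figure D2:**
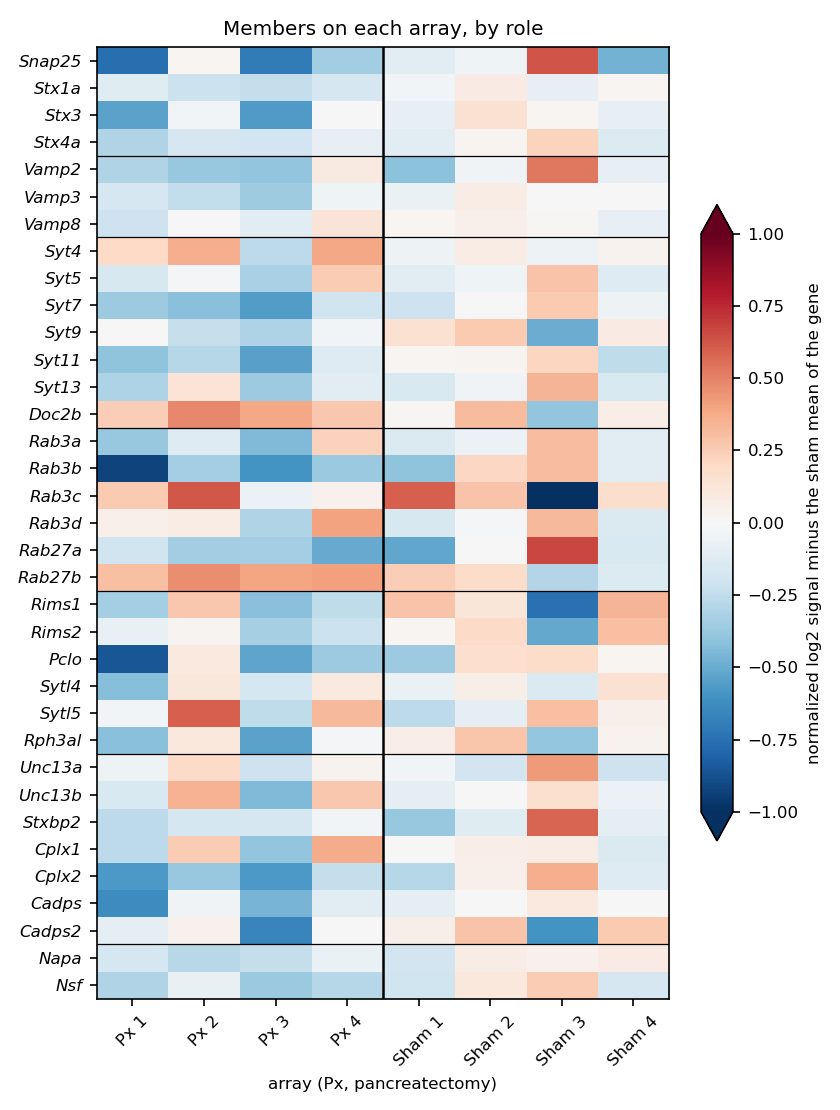
Normalized log2 signal of each member (rows, by role) on each array (columns, pancreatectomy left of sham) minus the mean of that gene's 4 sham arrays; blue is lower and red higher, and values past 1 unit take the end colour. The columns of pancreatectomy replicates 1 and 3 are mostly blue, those of replicates 2 and 4 are mixed, and sham replicate 3 holds the strongest reds and some of the strongest blues.

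The Rab3 and Rab27 genes held both the lowest and the highest change of all members. These small GTPases sit on granules in their GTP-bound form and recruit effectors for docking. Of the 6, changes of 3 were negative and of 3 positive, with a median of -0.062. Rab3b had 11.62, 12.20, 11.95 and 12.18 on the pancreatectomy arrays and 12.14, 12.75, 12.85 and 12.43 on the sham arrays. All pancreatectomy values but those of replicates 2 and 4 lay under the lowest sham value, that of replicate 1. The change was -0.56 ± 0.21, with a 95% interval from -1.04 to -0.083 (limma adjusted p = 0.411; probe at chr4:108613734-108613793), and it was -0.54 in slide row 1 and -0.58 in slide row 2.

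Rab27b, one of 2 Rab27 genes, had 7.14, 7.30, 7.24 and 7.25 on the pancreatectomy arrays and 7.09, 7.02, 6.55 and 6.70 on the sham arrays. Every pancreatectomy value lay above every sham value, the nearest pair being pancreatectomy replicate 1 and sham replicate 1. The change was 0.39 ± 0.16, with a 95% interval from 0.028 to 0.76 (limma adjusted p = 0.444), and its second probe gave 0.23 ± 0.20. By slide row it was 0.17 and 0.62. Rab27a, which docks insulin granules together with Sytl4, went the other way, with 10.43, 10.27, 10.28 and 10.12 on the pancreatectomy arrays, against 10.10, 10.63, 11.29 and 10.47 on the sham arrays. Sham replicate 3 stood highest and sham replicate 1 lowest, and the change was -0.35 ± 0.24 (limma adjusted p = 0.647), with -0.014 in slide row 1 and -0.68 in slide row 2.

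Rab3a, a main Rab3 protein of neurons and endocrine granules, had 13.79, 14.05, 13.73 and 14.40 on the pancreatectomy arrays and 14.03, 14.12, 14.48 and 14.07 on the sham arrays. Pancreatectomy replicates 1 and 3 were below all sham values and replicate 4 above 3 of them. The change was -0.18 ± 0.19 (limma adjusted p = 0.769), and it turned to 0.049 without replicates 1 and 3. Rab3c had 0.22 ± 0.34, the widest error among the members, with sham values from 11.69 on replicate 3 to 13.34 on replicate 1, and it turned to -0.13 without sham replicate 3. Rab3d, known from secretory granules of exocrine cells, had 0.06 ± 0.19.

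Of the 6 Rab effector and active zone genes 5 had negative changes, with a median of -0.17. Pclo, a large scaffold of the presynaptic active zone that also acts in beta cells, had 11.25, 12.21, 11.58 and 11.74 on the pancreatectomy arrays and 11.74, 12.27, 12.29 and 12.13 on the sham arrays. Pancreatectomy replicate 2 lay among the higher sham values and replicate 4 beside sham replicate 1, and the change was -0.41 ± 0.23 (limma adjusted p = 0.571; probe at chr5:14795934-14795993). Its 4 kept probes ran from -0.41 to 0.039. Rims2, the RIM protein that links Rab3, calcium channels and priming in beta cells, had -0.15 ± 0.20, and Rims1 had -0.19 ± 0.27. Sytl4 (granuphilin), which binds Rab27a and syntaxin on insulin granules, had -0.10 ± 0.17, Rph3al, an effector of Rab3 and Rab27, -0.22 ± 0.21, and Sytl5 0.16 ± 0.22.

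Among the 7 genes for priming, clamping and Munc18-type proteins 6 changes were negative, with a median of -0.16. Cplx2, a complexin that binds the assembled SNARE complex, had 14.64, 14.84, 14.64 and 14.97 on the pancreatectomy arrays and 14.93, 15.26, 15.57 and 15.09 on the sham arrays. Pancreatectomy replicate 4 exceeded sham replicate 1, and no other pair crossed. The change was -0.44 ± 0.18 (limma adjusted p = 0.437; probe at chr13:54485200-54485259), 0.737 times the sham level. All 5 Cplx2 probes were lower, from -0.54 to -0.12, although the array design places 2 of them on chromosomes 5 and 6 and only 3 on chromosome 13. Cplx1 had -0.01 ± 0.20, with an interval from -0.46 to 0.44.

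Cadps, the CAPS protein that readies dense-core granules, had 11.41, 12.01, 11.58 and 11.94 on the pancreatectomy arrays and 11.94, 12.05, 12.14 and 12.04 on the sham arrays. Only pancreatectomy replicate 2 exceeded a sham value, that of sham replicate 1, and replicates 1 and 3 were lowest. The change was -0.31 ± 0.17 (limma adjusted p = 0.573; probe at chr14:13205079-13205138), and -0.068 without replicates 1 and 3. Its relative Cadps2 had -0.18 ± 0.25. With their brightest probes the Munc13 genes gave values near 0, Unc13a -0.01 ± 0.18 and Unc13b 0.01 ± 0.20. A second, dimmer Unc13a probe gave -0.36 ± 0.16, and the mean of the kept Unc13a probes gave -0.18. Stxbp2, a Munc18-type protein, had -0.16 ± 0.21. For the brightest probes the 95% intervals ran from -0.42 to 0.41 for Unc13a and from -0.44 to 0.45 for Unc13b. With 4 arrays a group the values do not exclude changes inside these intervals. The intervals are not limits of detection, and changes outside them could also have missed the adjusted threshold.

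Both disassembly genes were negative. Nsf, the ATPase that pulls spent SNARE complexes apart, had 11.22, 11.45, 11.16 and 11.24 on the pancreatectomy arrays and 11.33, 11.63, 11.78 and 11.36 on the sham arrays. Only pancreatectomy replicate 2 reached the sham range, and the change was -0.26 ± 0.16 (limma adjusted p = 0.604), with 0.34 ± 0.21 from its other, dimmer probe. Napa, the adaptor that brings Nsf to the complex, had -0.19 ± 0.13 (limma adjusted p = 0.654), and its other probe gave -0.21. Its lowest sham value, 13.55 on replicate 1, stood apart from the others, which ran from 13.78 to 13.82.

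The members' values differed between arrays of one group. Taken over the 35 members, the median difference from the sham mean was -0.26, -0.003, -0.36 and -0.023 on pancreatectomy replicates 1 to 4, against -0.097, 0.055, 0.16 and -0.080 on sham replicates 1 to 4. Replicates 1 and 3 of the pancreatectomy group were lower, and replicates 2 and 4 lay inside the sham range. The lowest of the 8 values fell on pancreatectomy replicate 3 for 16 members and on replicate 1 for 8, and the highest on sham replicate 3 for 16. Over all features the same medians were -0.15, 0.059, -0.12 and 0.007, against 0.043, 0.014, 0.004 and -0.053.

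Marker lists of cell types were set beside the members on each array. The mean of 8 beta-cell markers differed from its sham mean by -0.63, -0.085, -0.50 and -0.23 on pancreatectomy replicates 1 to 4, against -0.12, -0.067, 0.41 and -0.23 on the sham arrays, and 0 of 8 passed. The change was -0.65 for Nkx6-1, -0.64 for Slc2a2, -0.51 for Pdx1, -0.43 for Slc30a8 and -0.36 for Mafa. It was -0.15 for Ins2, -0.082 for Ins1 and -0.059 for Iapp. Mafa was lowest on pancreatectomy replicate 2, and Ins1 and Ins2 were lowest on sham replicate 4. The 6 markers of alpha, delta and PP cells had -0.75, -0.29, -0.13 and -0.31, against 0.18, -0.049, 0.021 and -0.15, with 0 past. The mean of the beta-cell markers was lowest on pancreatectomy replicates 1 and 3, as the members' median was. That of the other islet markers was lowest on replicate 1 and within its sham range on replicate 3. The means of fibroblast and macrophage markers were high on both. The 7 fibroblast and pericyte markers had 3.06, -0.005, 2.40 and 0.014 on the pancreatectomy arrays, against -0.42 to 0.46 on the sham arrays, with 0 of 7 past. The 7 macrophage markers had 2.30, -0.15, 1.80 and 0.19, against -0.18 to 0.11, with 1 past, Folr2, which was higher. Unlike the list mean, Folr2 was raised on every pancreatectomy array, with 9.03, 8.69, 8.60 and 8.41, against 7.14 to 7.81 on the sham arrays.

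The means of duct markers and of neutrophil and mast cell markers were also highest on pancreatectomy replicates 1 and 3. Single genes differed, as Krt7 and Mpo were highest on sham replicate 3 and Cftr and Elane on sham replicate 1. The 6 duct markers had 1.31, -0.35, 0.86 and -0.36 on the pancreatectomy arrays, against -0.44 to 0.57 on the sham arrays, and 5 measured neutrophil and mast cell markers had 1.67, 0.31, 1.39 and 0.54, against -0.29 to 0.49. The remaining lists had other patterns. The 5 measured lymphocyte markers reached 3.55 and the 5 gut markers 3.12 on pancreatectomy replicate 3, while the other arrays of either group stayed at or below 0.53 for both. The 7 acinar markers ran from -0.73 to 1.44 on the pancreatectomy arrays and from -1.98 to 1.34 on the sham arrays, lowest on sham replicate 3. The 6 neuron markers, cells that share this machinery, had -0.16, 0.049, -0.22 and 0.19, against -0.13 to 0.19. The mean of the 6 endothelial markers stayed between -0.003 and 0.093, against -0.17 to 0.16. Single genes went apart, with -0.76 ± 0.22 for Esm1 and 0.71 ± 0.27 for Cdh5 (limma adjusted p = 0.274 and 0.414). Esm1 was lower with no overlap of the groups. The mean of Schwann cell markers lay between -0.14 and 0.38, against -0.20 to 0.21. Liver markers had 5.64, -2.06, 0.19 and 4.47 on the pancreatectomy arrays, against -1.65, -2.29, -1.41 and 5.34 on the sham arrays. Pancreatectomy replicate 4, high in them, stays in the comparison without pancreatectomy replicates 1 and 3. The part of any of these lists in the members' values was not tested. In whole islets fewer endocrine cells and less RNA per cell cannot be told apart.

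**Figure D3:**
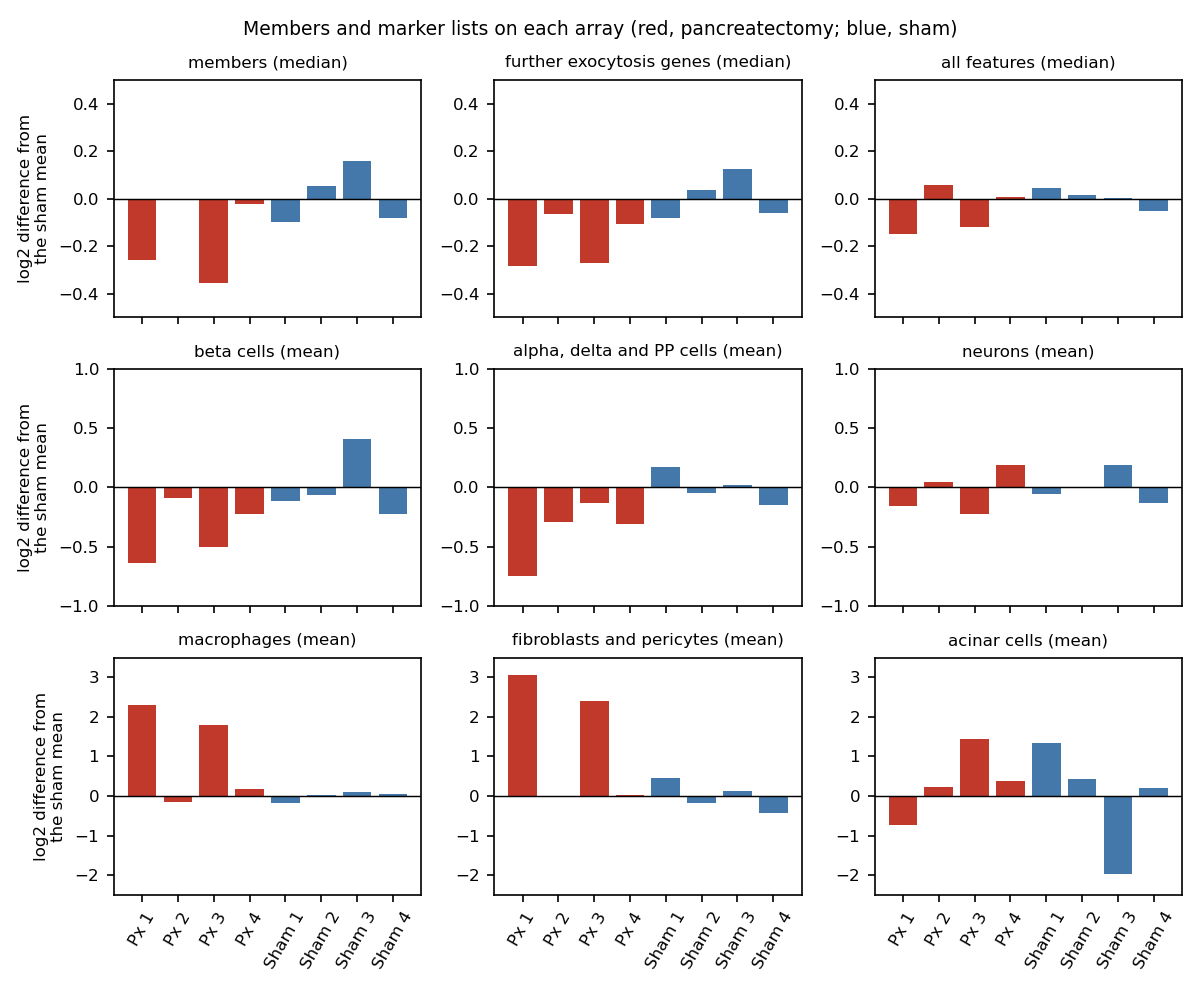
Difference from the sham mean on the log2 scale (vertical axes, which differ between rows of panels) on each array, pancreatectomy (red) left of sham (blue), as the median over members, further exocytosis genes and all features and as the mean over marker lists. Pancreatectomy replicates 1 and 3 show the lowest bars for members (-0.26 and -0.36) and the highest for fibroblasts and pericytes (3.06 and 2.40).

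Pancreatectomy replicates 1 and 3 had the lowest member medians, so leaving them out raises the members' changes by construction. Without these arrays the members' changes centred near 0. The median was -0.016, against 0.040 over all features, with 18 negative and 17 positive changes, and 0 members were at an unadjusted p under 0.05, against 8.07% of all features. Changes under -0.3 were left for 4 members, Rab27a at -0.43, Rab3b at -0.36, Cplx2 at -0.31 and Syt7 at -0.31. Changes over 0.3 were measured for 7, among them Sytl5 at 0.46, Rab27b at 0.44, Doc2b at 0.38 and Syt4 at 0.37. With only 2 arrays left in the pancreatectomy group, limma's spread comes mostly from the sham arrays. When sham replicate 3 alone was left out, the members' median was -0.15, with 25 negative changes. The cause of these shifts was not tested.

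**Figure D4:**
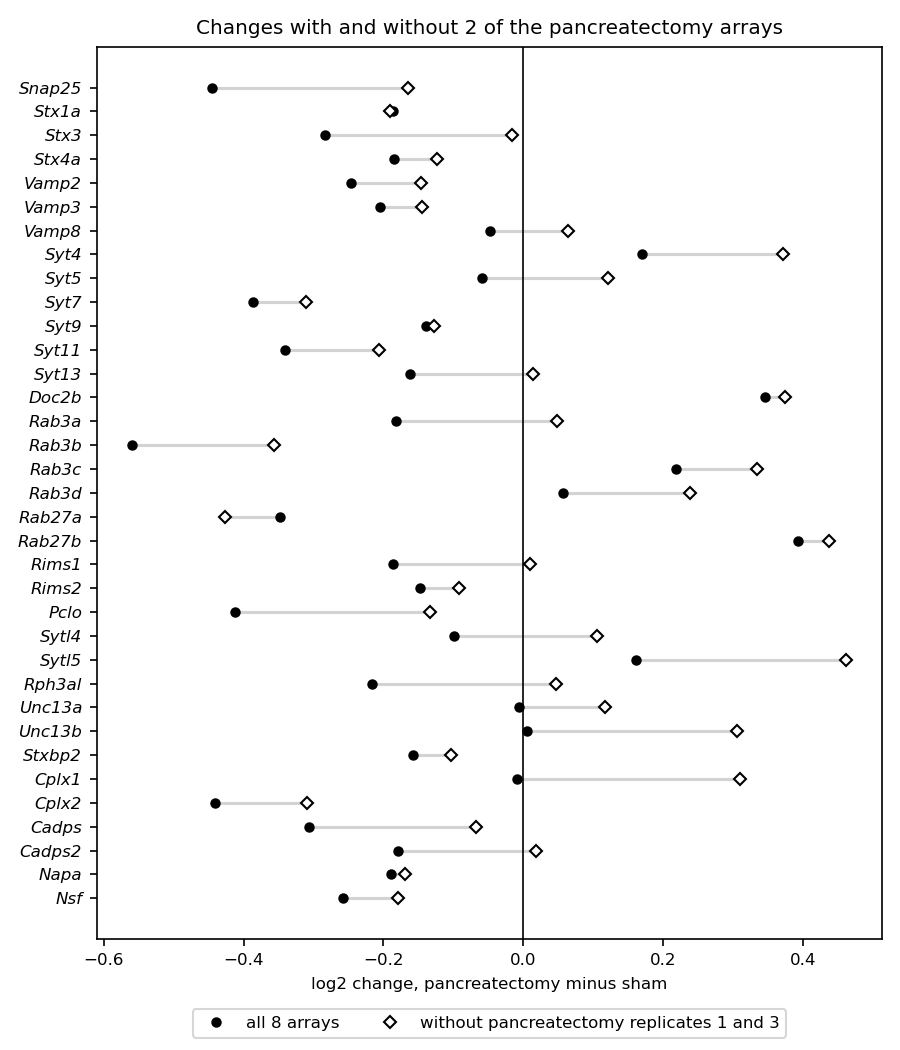
Log2 change of each member (horizontal axis, pancreatectomy minus sham) over all 8 arrays (filled circles) and without pancreatectomy replicates 1 and 3 (open diamonds), with a grey line joining the 2 values of a gene. The diamonds spread about 0 with a median of -0.016, the circles about -0.18, and Stx1a at -0.19 in both hardly moved.

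The slide rows gave like medians. The members' median was -0.15 in row 1 and -0.18 in row 2, against -0.068 and -0.022 over all features. In both rows negative were 22 of 35 members, or 62.9%, against 34.6% of all features, in both rows positive were 4, or 11.4%, against 24%, and in 9 members the rows disagreed in sign. The members positive in both rows were Syt4, Doc2b, Rab3c and Rab27b.

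Where a gene had several probes they mostly agreed in sign. Of 17 members with more than 1 kept probe, all probes of 10 were lower, all probes of 2 were higher (Rab3c and Rab27b), and 5 had both signs. These were Syt7, Rab3d, Rims1, Pclo and Nsf. The widest spread was that of Rims1, with -0.19 for the brightest probe and 0.42 ± 0.30 for the other.

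**Figure D5:**
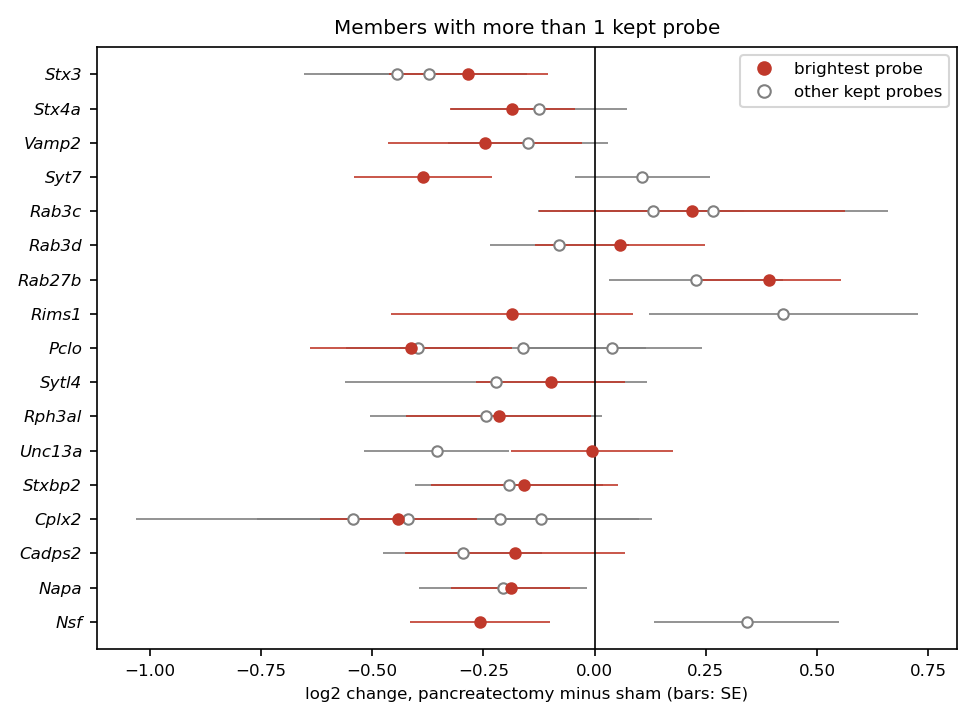
Log2 change (horizontal axis, pancreatectomy minus sham) of every kept probe of the 17 members with more than 1, with SE bars; the brightest probe, which stands for the gene, is red and the others are open grey. Probes of Cplx2 all lie left of 0, from -0.54 to -0.12, while Rims1 spans from -0.19 to 0.42.

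Further genes of the pathway, which are not members, had like values. Of 70 on the array 67 were measured, and Syt12, Unc13c and Cplx4 were not above background often enough. With limma 0 of 67 passed, and 7, or 10.4%, were at an unadjusted p under 0.05 (1 higher and 6 lower), against 10.5% of all features. The change was negative for 52, or 77.6%, against 54.9% of all features, and the median was -0.20. The groups lay wholly apart and lower for 5, or 7.46%, against 5.3% of all features. Small p-values among those lower belonged to Stx6, a syntaxin of the trans-Golgi network, and Stx7, a syntaxin of late endosomes.

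Stx6 had 9.72, 9.84, 9.95 and 9.88 on the pancreatectomy arrays and 10.08, 10.45, 10.50 and 10.23 on the sham arrays. All 4 pancreatectomy values were under all sham values, and the change was -0.47 ± 0.15 (limma adjusted p = 0.323). The mean of the 2 kept Stx6 probes gave -0.26. Stx7 had -0.37 ± 0.14 (limma adjusted p = 0.417), and its groups did not overlap either. The smallest p-values among those higher were those of Myrip, a Rab27 and myosin linker, at 0.62 ± 0.26 (limma adjusted p = 0.458), Stx18, a syntaxin of the endoplasmic reticulum, at 0.31 ± 0.21, and Exph5, a Rab27 effector, at 0.38 ± 0.33. Myrip had 0.30 with normexp background correction and 0.33 with array weights, and Stx18 had 0.15 without sham replicate 3 and 0.14 with array weights. Exph5 had 0.093 without pancreatectomy replicate 2, 0.16 without sham replicate 3, 0.079 with normexp and 0.007 with array weights. Without pancreatectomy replicates 1 and 3 the values were 1.00 for Myrip, 0.45 for Stx18 and 0.73 for Exph5. Syt10, chosen after its values were seen, had 10.02 on sham replicate 3 and between 4.22 and 5.95 on the other 7 arrays.

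Promoter windows from RefSeq (GRCm38.p6), which span a gene's annotated start, were found for 25 of 35 members. They were read for the cAMP response element TGACGTCA, its half-site TGACG, which every full element contains, and the GC box GGGCGG, on both strands. A gene counted where any of its windows held the motif. The half-site was found for 10 of 25, or 40.0%, against 23.0% of all 27025 genes with a window and 26.2% of protein-coding ones. The full element was found for 1 of 25, Napa, against 2.03% of all genes with a window. The GC box was found for 17 of 25, or 68.0%, against 38.2% and 49.2%. The median change was -0.18 for members with the half-site and -0.19 for those without. Stretches of 90 bases are shown for the member with the full element and for a GTPase and a SNARE of the core machinery, on the plus strand, at chr7:16098491-16098580, chr8:70754614-70754703 and chr5:135023328-135023417, with the motifs found in capitals, as their reverse complement where they lie on the minus strand. They begin 89, 89 and 154 bases before the annotated start.
Napa: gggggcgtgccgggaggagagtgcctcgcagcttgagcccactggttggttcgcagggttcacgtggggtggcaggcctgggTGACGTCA
Rab3a: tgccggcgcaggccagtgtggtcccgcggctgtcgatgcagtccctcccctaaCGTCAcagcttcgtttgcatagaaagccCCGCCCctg
Stx1a: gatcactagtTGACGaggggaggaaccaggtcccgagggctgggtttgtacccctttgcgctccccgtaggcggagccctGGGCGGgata
A match describes letters in a window and says nothing of binding in islets.

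The authors' deposited table of group averages gave the same picture for the members. Its pancreatectomy minus sham differences had the sign of the array values for all 35, each within 0.00565 of them. Across 30858 features the slope between the deposited differences and the array values was 0.998 and Pearson's r 0.986, genes being no independent replicates.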

How the data were processed

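RNA from islets was labelled with Cy3 and hybridised to 8 arrays of 1 slide. The deposited array files hold processed intensity per spot, per the file headers from Feature Extraction 10.7.3.1, while the submitters' processing notes name version 9.1 and GeneSpring GX 12.5. The authors' deposited table holds log2 group averages, used here as an alternative. From the intensity of each array log2 values were taken and shifted to a common 75th percentile, and the mean percentile was added back. Control spots and outlier flags were left out, and spots of a probe were averaged, which left 55681 probes from 59305 spots. A probe was kept if well above background on at least 4 of 8 arrays (37485 probes), and the brightest kept probe stood for a gene (30858 features). Positions of probes come from the array's design on mm9 and were not placed in exons or UTRs here.

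The 4 pancreatectomy and 4 sham arrays were set against each other in a limma fit (version 3.58.1, run under R 4.3.3) with moderated variances and Benjamini-Hochberg adjustment over all features. The procedure was tested on simulated data, and no error rate from that is given here. Array number limits the precision, and the correlation r of arrays ran from 0.960 to 0.993 within a group and 0.949 to 0.987 between groups. All members are given. Per-array values are shown for the 12 with the smallest p and for Snap25, Stx1a, Vamp2, Syt7, Rab3a and Rab27a. Of the further pathway genes the 3 with the smallest p in each direction were to be named, and 1 of those lower is not reported here. The members and lists were chosen with earlier results of these data known. The arrays carry no gMeanSignal values, so normexp (offset 50) used median signals.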

Additional observations from a re-analysis of the deposited data

Results flagged for a closer look

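Among 84 groups of 4 arrays checked for one value standing far from the others, 2 exceeded Dixon's 95% critical value for the gap over the range, and chance gives about 1 in 20. For Napa the value of 13.55 on sham replicate 1 was the lowest, with the next at 13.78 and the highest at 13.82, a gap of 0.85 of the range. For Stx18 the value of 10.93 on pancreatectomy replicate 3 was the lowest, with the next at 11.33 and the highest at 11.42, a gap of 0.831.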

How the results depend on the processing

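No member was called in any alternative, and the smallest adjusted p of any member over all of them was 0.106. Over 23 alternatives each, 16 of 35 members kept one sign (another probe alone aside), and the cause of the turns below was not tested. The members' median was -0.18, -0.31 with median scaling, which moved the median of all features to -0.16, from -0.20 to -0.11 over arrays left out singly, and -0.016 without pancreatectomy replicates 1 and 3. Over all features 168 were called higher and 26 lower. Higher and lower calls were 54 and 6 with normexp, 130 and 48 with median scaling, 18 and 0 with no scaling (at an adjusted p, limma), 68 and 4 with no filter, 92 and 33 with the stricter filter, 111 and 11 when slide row was a block, 0 and 0 within each row, 407 and 361 with array weights, 14 and 1 without pancreatectomy replicates 1 and 3, and 0 and 0 with sham replicates 1 to 3 and pancreatectomy replicate 2 only. With arrays left out singly they ran from 56 to 165 and from 3 to 32.

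Signs turned with normexp for Vamp8 (0.0087), Rab3d (-0.048), Unc13a (0.040) and Unc13b (-0.062), with quantile scaling for Vamp8 (0.023) and Cplx1 (0.0047), and with median scaling for Rab3d (-0.066) and Unc13b (-0.12). The mean of probes turned Rab3d (-0.011), Rims1 (0.12) and Nsf (0.043). Another probe alone gave -0.079 for Rab3d, 0.42 for Rims1, 0.34 for Nsf, 0.039 for Pclo and 0.11 for Syt7. Slide row 1 gave 0.18 for Unc13a, 0.0074 for Syt13 and 0.032 for Stxbp2, and slide row 2 gave 0.048 for Vamp8, -0.040 for Rab3d, -0.14 for Unc13b, 0.023 for Cplx1, 0.043 for Syt9 and -0.14 for Sytl5. Array weights gave 0.097 for Unc13a, -0.075 for Unc13b and -0.12 for Rab3c. Without pancreatectomy replicates 1 and 3 the values were 0.065 for Vamp8, 0.12 for Unc13a, 0.31 for Cplx1, 0.0095 for Rims1, 0.014 for Syt13, 0.11 for Sytl4, 0.12 for Syt5, 0.049 for Rab3a, 0.047 for Rph3al and 0.019 for Cadps2. With sham replicates 1 to 3 and pancreatectomy replicate 2 only they were 0.13 for Unc13a, 0.20 for Cplx1, 0.39 for Rims1, 0.082 for Syt13, 0.16 for Sytl4, 0.12 for Rph3al, 0.13 for Cadps2, 0.13 for Rims2 and 0.11 for Pclo. Over arrays left out singly the change ranged for Vamp8 from -0.11 to 0.0060, Rab3d from -0.056 to 0.18, Unc13a from -0.074 to 0.14, Unc13b from -0.11 to 0.15, Cplx1 from -0.13 to 0.12, Stxbp2 from -0.28 to 0.037, Rab3c from -0.13 to 0.42, Sytl4 from -0.17 to 0.011 and Syt5 from -0.16 to 0.035.

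No paired analysis was possible because the replicate numbers follow the order of the arrays and come from no label. All members were well above background on every array, but this does not exclude an effect of the low signal of sham replicate 3 on dimmer members. Such an effect was not tested. The 4 arrays a group and the slide columns limit every value. Where a fit held 1 pancreatectomy array, that array was assumed to vary like the sham arrays.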
